A study of Mus musculus with 13 samples.

Results

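The immediate early genes of neuronal activity described here were Fos, Fosb, Junb, Egr1, Egr3, Arc, Npas4, Nr4a1, Dusp1 and Btg2. They were chosen by name and by no cut on the measured values, though with earlier results of these data known. They are a set of genes known to be transcribed within minutes of neuronal firing. They make up 10 of the 19938 genes that the arrays measured through a probe set naming no other gene, and each was read by 1 of the 35556 probe sets. RNA of whole hippocampi was measured in 13 C57BL/6J mice aged 1 to 2 months and fed standard chow, with 1 array per mouse. The βGeo allele of Kmt2d, the gene of a histone H3 lysine 4 methyltransferase, carries a β-galactosidase and neomycin-resistance reporter, and heterozygous mice are a model of Kabuki syndrome. Experiment 1 had 4 wild-type and 3 Kmt2d+/βGeo mice that received no injections, and its RNA was extracted with an RNeasy kit. Experiment 2 had 3 wild-type and 3 Kmt2d+/βGeo mice that received 3 injections of saline a day as controls of another study, and its RNA was extracted with TRIzol and a column cleanup. The wild-type replicate 3 of experiment 1 has its sex labelled as unknown, and every other mouse is labelled female. Each group, then, holds a genotype and an experiment, and the injections, the extraction and the array run differ together between the experiments.

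Immediate early genes need no new protein to be switched on. Calcium entering through glutamate receptors and voltage-gated channels activates kinases that phosphorylate transcription factors already bound at their promoters, chiefly CREB at the cyclic AMP response element (CRE) and SRF with its partners at the CArG box. Their products are transcription factors (the Fos and Jun proteins, the Egr zinc fingers, Npas4 and the orphan nuclear receptor Nr4a1), the synaptic protein Arc, and brakes on the response, such as the MAP kinase phosphatase Dusp1. In the hippocampus they mark neurons that fired recently and are needed for lasting memory.

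RefSeq promoters (build GRCm38.p6, 250 bases before to 50 after the gene's start) were at hand for 7 of the 10 genes: Fos, Fosb, Junb, Npas4, Nr4a1, Dusp1 and Btg2. Shown here, 5′ to 3′ on the gene's strand, are those of Fos and Npas4 and of Fosb and Junb, the pairs with the next highest correlations between mice after Egr1 and Arc (neither past adjustment), and that of Dusp1, which holds a whole CRE. Capitals mark the core of the CRE, TGACG or its reverse complement CGTCA, and the whole CRE, TGACGTCA, in which both cores overlap.
Fos: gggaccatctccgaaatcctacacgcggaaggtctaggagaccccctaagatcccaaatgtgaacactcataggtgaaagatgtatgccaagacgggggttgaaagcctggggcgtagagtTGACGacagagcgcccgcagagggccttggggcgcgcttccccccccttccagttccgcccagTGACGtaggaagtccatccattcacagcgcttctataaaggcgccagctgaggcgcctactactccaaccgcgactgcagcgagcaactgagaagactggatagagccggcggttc
Npas4: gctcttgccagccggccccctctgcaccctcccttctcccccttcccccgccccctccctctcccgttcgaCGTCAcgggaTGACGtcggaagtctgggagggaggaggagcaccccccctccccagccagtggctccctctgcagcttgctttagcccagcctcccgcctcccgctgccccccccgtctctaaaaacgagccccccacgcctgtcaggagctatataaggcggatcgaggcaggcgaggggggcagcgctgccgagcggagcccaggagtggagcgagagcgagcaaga
Fosb: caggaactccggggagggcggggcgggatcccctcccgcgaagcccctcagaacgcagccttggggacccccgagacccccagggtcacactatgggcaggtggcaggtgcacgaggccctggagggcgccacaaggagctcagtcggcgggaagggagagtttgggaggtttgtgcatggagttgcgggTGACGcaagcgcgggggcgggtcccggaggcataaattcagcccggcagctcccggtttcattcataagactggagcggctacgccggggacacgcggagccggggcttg
Junb: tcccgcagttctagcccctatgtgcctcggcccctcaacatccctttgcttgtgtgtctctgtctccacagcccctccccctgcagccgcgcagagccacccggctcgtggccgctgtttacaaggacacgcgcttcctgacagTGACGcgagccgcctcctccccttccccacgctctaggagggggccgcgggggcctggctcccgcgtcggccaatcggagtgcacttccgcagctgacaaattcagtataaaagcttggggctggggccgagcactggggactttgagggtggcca
Dusp1: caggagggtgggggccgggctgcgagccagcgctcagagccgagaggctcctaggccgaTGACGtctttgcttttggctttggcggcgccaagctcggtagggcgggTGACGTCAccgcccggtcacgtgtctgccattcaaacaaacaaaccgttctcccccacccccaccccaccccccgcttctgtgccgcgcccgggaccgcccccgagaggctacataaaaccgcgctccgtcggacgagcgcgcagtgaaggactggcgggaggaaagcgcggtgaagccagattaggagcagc

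They lie at chr12:85473640-85473939 on the plus strand (Fos), and on the minus strand at chr19:4989922-4990221 (Npas4), chr7:19309996-19310295 (Fosb), chr8:84978699-84978998 (Junb) and chr17:26508423-26508722 (Dusp1). Searched on both strands, the core was present in 7 of the 7 promoters and in 20.8% of the 32841 RefSeq mouse promoters of the same length. The whole CRE was found in those of Dusp1 and Btg2, 2 of 7, and in 1.79% of all. The motif GCGGGGGCG, bound by Egr proteins, was present in those of Fosb and Nr4a1, and in 2.91% of all. TATAAA was present in those of Fos and Junb, and in 13.6% of all. The CArG box was in 0 of the 7 windows and in 1.63% of all. The windows of these genes were also rich in G and C, from 58.7% in Fos to 72.3% in Nr4a1, beside a median of 52.7% over all promoters. These matches describe the letters of the windows only.

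Before the values of these genes, the arrays themselves were compared. One Kmt2d probe set was lower in Kmt2d+/βGeo mice in both experiments without overlap (7.17 to 7.47 against 7.87 to 7.90 in experiment 1, 7.88 to 8.18 against 8.32 to 8.76 in experiment 2, log2 RMA intensity), while another Kmt2d probe set was not lower. It was at 9.84 to 9.95 in Kmt2d+/βGeo and 9.82 to 9.83 in wild-type mice of experiment 1, and at 9.49 to 9.80 and 9.46 to 9.82 in experiment 2. Dentate and CA1 markers were present on every array (Prox1 8.21 to 10.28, Wfs1 9.88 to 10.88). The median intensity of an array lay between 6.74 and 6.90 without injections and between 7.04 and 7.08 with them, and the correlation between arrays was at least 0.985 within an experiment and 0.936 to 0.958 between them. A pair of wild-type arrays of experiment 1 stood apart: replicate 2 had 10 striatal projection neuron markers at a mean of 2.07 above their mean over all arrays (the other arrays were at -0.33 to -0.07), and replicate 3, of unknown sex, had Xist at 4.81 (10.70 to 11.48 elsewhere). Genotype differences are also given without both, and so are the correlations of the gene pairs named below. Exact permutation tests used all arrays.

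The Fos and Jun families supply the partners of AP-1, the dimeric factor that carries the first wave of activity into later transcription. Fos, the most used marker of active neurons, was at 6.98, 6.84, 6.86 and 6.78 in the wild-type mice of experiment 1 and at 6.93, 6.55 and 6.53 in their Kmt2d+/βGeo counterparts. In experiment 2 it was at 6.81, 7.02 and 7.03 in wild-type and at 7.04, 6.81 and 6.66 in Kmt2d+/βGeo mice. The lowest 3 values of Fos were all from heterozygotes, but 1 heterozygote in each experiment lay at or near the top, so the genotypes overlapped in both. Fosb, whose truncated splice form accumulates with repeated activity (the probe set does not separate the forms here), was at 8.58, 8.64, 8.54 and 8.46 in wild-type and 8.49, 8.42 and 8.39 in Kmt2d+/βGeo mice of experiment 1. In experiment 2 its values were 7.99, 8.28 and 8.07 in wild-type and 8.09, 8.16 and 7.94 in Kmt2d+/βGeo mice. Every mouse of experiment 2 was below every mouse of experiment 1. Junb, a partner of both, was at 7.59, 7.84, 7.76 and 7.67 in wild-type and 7.75, 7.73 and 7.68 in Kmt2d+/βGeo mice of experiment 1. It was at 7.89, 8.60 and 8.16 in wild-type and 7.95, 8.30 and 7.92 in Kmt2d+/βGeo mice of experiment 2, each above every mouse of experiment 1.

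The Egr genes encode zinc finger factors that bind GC-rich sites, and Egr1, also called Zif268, is required for late-phase plasticity in the dentate gyrus. Egr1 was at 9.45, 9.87, 9.04 and 9.29 in wild-type and 9.26, 9.32 and 9.21 in Kmt2d+/βGeo mice of experiment 1, and at 8.33, 8.98 and 8.76 in wild-type and 8.94, 8.90 and 8.63 in Kmt2d+/βGeo mice of experiment 2. Egr3 was at 9.27, 9.58, 9.34 and 9.28 in wild-type and 9.37, 9.34 and 9.42 in Kmt2d+/βGeo mice of experiment 1, and at 8.42, 8.81 and 8.83 in wild-type and 8.83, 8.28 and 8.67 in Kmt2d+/βGeo mice of experiment 2. For both genes the mice separated by experiment and mixed by genotype. Npas4, a neuron-specific factor induced by calcium and known for building inhibitory synapses, was at 8.20, 8.16, 7.72 and 7.53 in wild-type and 8.04, 7.43 and 7.63 in Kmt2d+/βGeo mice of experiment 1. It was at 6.90, 7.19 and 7.27 in wild-type and 7.69, 7.51 and 6.86 in Kmt2d+/βGeo mice of experiment 2, so that in heterozygotes the experiments overlapped and in wild-type mice they did not. Nr4a1 was at 9.45, 9.88, 9.74 and 9.35 in wild-type and 9.48, 9.48 and 9.47 in Kmt2d+/βGeo mice of experiment 1, where a pair of arrays held an identical value and the SD of 0.005 understates the spread. It was at 8.74, 9.85 and 9.35 in wild-type and 9.51, 9.37 and 9.45 in Kmt2d+/βGeo mice of experiment 2. Wild-type mice spanned both the highest and the lowest values of Nr4a1.

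Arc, whose protein is made at dendrites and removes AMPA receptors from synapses, was at 9.51, 9.67, 8.84 and 9.31 in wild-type and 9.56, 9.54 and 9.33 in Kmt2d+/βGeo mice of experiment 1. In experiment 2 it was at 9.19, 10.06 and 9.91 in wild-type and 9.89, 9.73 and 9.65 in Kmt2d+/βGeo mice. All heterozygotes of experiment 2 were above those of experiment 1, and the wild-type mice of the experiments overlapped. Dusp1, which switches MAP kinases off again, was at 10.03, 9.997, 10.76 and 10.08 in wild-type and 9.65, 10.27 and 9.88 in Kmt2d+/βGeo mice of experiment 1, and at 9.73, 10.45 and 10.24 in wild-type and 10.19, 9.92 and 9.69 in Kmt2d+/βGeo mice of experiment 2. Btg2, an antiproliferative cofactor of messenger RNA decay, was at 8.16, 7.84, 8.42 and 8.07 in wild-type and 8.38, 8.10 and 8.20 in Kmt2d+/βGeo mice of experiment 1, and at 8.06, 7.94 and 8.51 in wild-type and 7.82, 8.03 and 7.87 in Kmt2d+/βGeo mice of experiment 2. The highest Dusp1 of all 13 arrays came from the wild-type replicate whose sex is unknown.

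**Figure D1:**
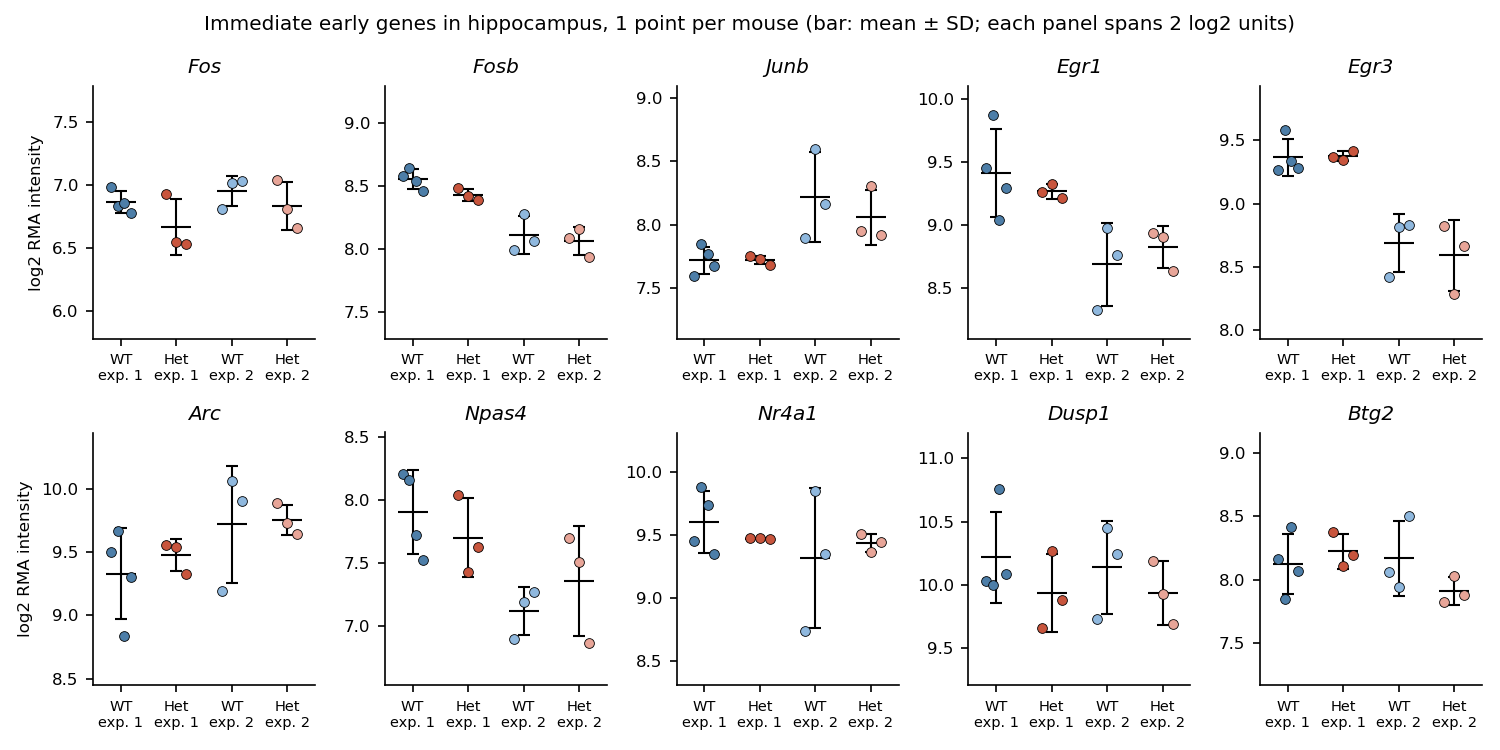
Log2 RMA intensity of each gene (vertical axis, 2 log2 units in every panel) in the 4 groups (WT, wild-type; Het, Kmt2d+/βGeo; exp., experiment), with 1 point per mouse and bars for the mean ± SD. Genotypes overlap in all 10 panels in both experiments, whereas the mice of the experiments do not overlap in either genotype for Fosb, Junb, Egr1 and Egr3.

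Ordered by group mean, most neighbouring groups overlapped. Fosb stood at 8.56 ± 0.08 (SD, n = 4) in wild-type and 8.43 ± 0.05 (n = 3) in Kmt2d+/βGeo mice of experiment 1, and then at 8.11 ± 0.15 and 8.06 ± 0.11 in wild-type and Kmt2d+/βGeo mice of experiment 2 (n = 3 each). The gap that no mouse bridged lay between the Kmt2d+/βGeo mice of experiment 1 and the wild-type mice of experiment 2. Egr3 was at 9.38 ± 0.04 (n = 3) in Kmt2d+/βGeo and 9.37 ± 0.15 (n = 4) in wild-type mice of experiment 1, and at 8.69 ± 0.23 and 8.59 ± 0.28 (n = 3 each) in wild-type and Kmt2d+/βGeo mice of experiment 2. Junb and Egr1 likewise had a single gap, between the experiments, and Fos, Arc, Npas4, Nr4a1, Dusp1 and Btg2 had no neighbours that were apart.

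The first comparison asked whether a loss of 1 working Kmt2d allele goes with another level of activity-dependent transcription in the hippocampus. None of the 10 genes passed the threshold over both experiments (limma with genotype and experiment as terms, Benjamini-Hochberg adjusted p under 0.05, adjusted over the 19938 genes), and 0 of the 10 had an unadjusted p under 0.05. The background was the same: 0% of all genes (0 of 19938) were called, although 1046 had an unadjusted p under 0.05. In whole tissue, fewer cells of a type and less RNA per cell cannot be told apart. Of the 10 genes, 2 were above 0 and 8 below (Kmt2d+/βGeo minus wild type), beside 51.0% of all genes above 0. The median log2 difference was -0.05 beside 0.002 over all genes. Junb, Egr1, Egr3, Arc, Npas4, Nr4a1 and Btg2 each changed sign when some single array was left out, and the genes vary together between mice, so these signs are not separate observations.

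The AP-1 genes were all below 0. Fos had a difference of -0.16 ± 0.08 (SE; 95% interval -0.33 to 0.01, 13 mice, adjusted p = 0.934, limma), with an unadjusted p of 0.0662 and an exact permutation p of 0.101 (two-sided, 700 regroupings within experiments). Fosb had -0.09 ± 0.06 (-0.22 to 0.04) and Junb -0.08 ± 0.10 (-0.29 to 0.14). Among the other transcription factors, Egr1 had -0.01 ± 0.13 (-0.28 to 0.25), Egr3 -0.04 ± 0.09 (-0.24 to 0.16), Npas4 0.003 ± 0.15 (-0.32 to 0.33) and Nr4a1 -0.01 ± 0.14 (-0.30 to 0.28). All of these intervals lie within 0.33 of 0. Fos itself lay in the lower 50% of genes by mean level, and RMA compresses differences of dim probe sets. Arc had 0.10 ± 0.14 (-0.20 to 0.39). The negative regulator Dusp1 had -0.25 ± 0.15 (-0.55 to 0.06), with an unadjusted p of 0.109 and an exact permutation p of 0.196. Without wild-type replicate 3 of experiment 1, which held its highest value, the difference of Dusp1 was -0.15 (adjusted p = 0.914, limma). Btg2 had -0.07 ± 0.11 (-0.30 to 0.16). Across the 10 genes, the widest bounds were thus -0.55 and 0.39. Without both wild-type arrays that stood apart, 0 genes were called, Fos was at -0.16 (adjusted p = 0.905, limma), and Egr1 and Nr4a1 turned to 0.03 and 0.10.

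**Figure D2:**
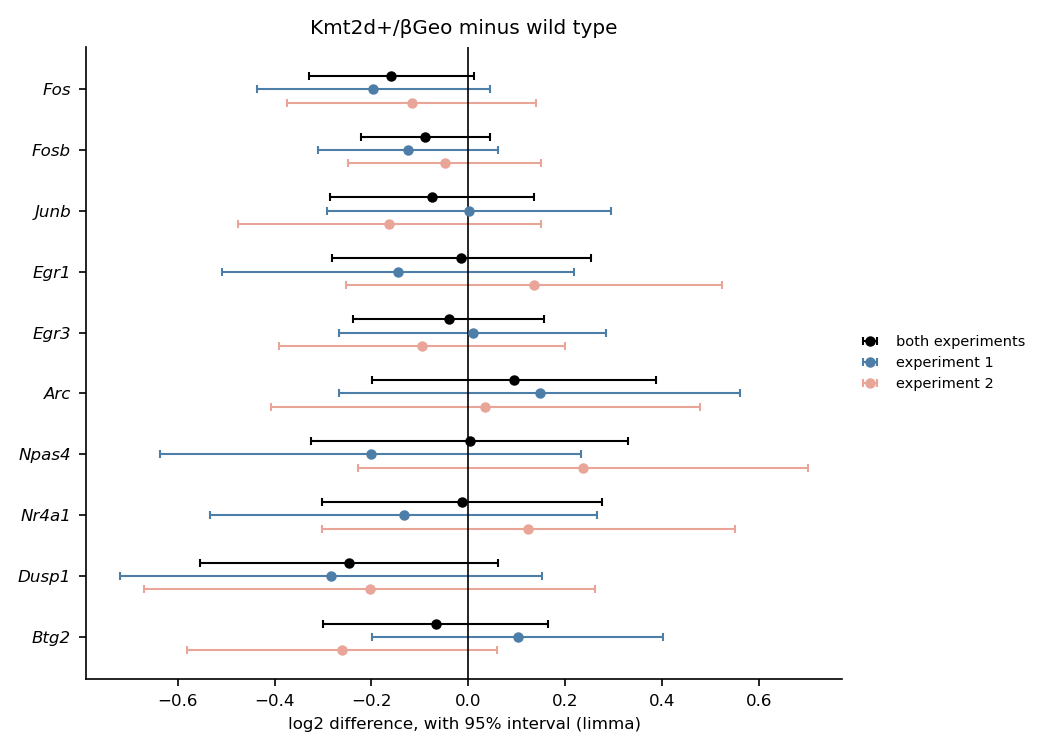
Log2 difference, Kmt2d+/βGeo minus wild type (horizontal axis), with its 95% interval from limma, for each gene over both experiments (black), in experiment 1 (blue) and in experiment 2 (pink); the vertical line marks 0. All intervals include 0, and the side of 0 differs between experiments for Junb, Egr1, Egr3, Npas4, Nr4a1 and Btg2.

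Within experiment 1, 0 of the 10 genes were called (0 with an unadjusted p under 0.05), beside 0.0201% of all genes, 4 genes that were lower. Here 4 of the 10 were above 0 and 6 below, beside 57.5% of all genes above 0, with a median of -0.13 (all genes 0.02). Dusp1 had -0.28 ± 0.20, Npas4 -0.20 ± 0.20 and Fos -0.20 ± 0.11. The value of Dusp1 was -0.10 without wild-type replicate 3 and -0.36 without wild-type replicate 2. Without both of these arrays, Dusp1 was at -0.12, Fos at -0.21, Npas4 at -0.16, Egr1 at -0.10, Fosb at -0.09 and Arc at 0.07. Egr3 (0.10), Btg2 (0.11), Junb (0.09) and Nr4a1 (0.07) were above 0 there, and 0 genes were called. Fosb had the lowest exact permutation p, 0.0857, where 4 against 3 mice can give 0.0286 at the smallest. In experiment 2, 0 of 10 were called (0 with an unadjusted p under 0.05), beside 0% of all genes, with a median of -0.07 (all genes -0.01). Btg2 had -0.26 ± 0.15 (adjusted p = 0.563, limma; exact permutation p = 0.2, where 3 against 3 mice cannot go below 0.1), Npas4 0.24 ± 0.22 and Dusp1 -0.20 ± 0.22. Without single mice these ran from -0.37 to -0.09 for Btg2, from 0.07 to 0.48 for Npas4 and from -0.41 to -0.05 for Dusp1, and none passed. The genotypes overlapped for all 10 genes in both experiments, whereas 7.22% of all genes did not overlap in experiment 1 and 9.48% in experiment 2, and 0.321% in both with the same direction.

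The difference of the genotype effects between the experiments was tested directly, and 0 of 10 genes were called (0 with an unadjusted p under 0.05), beside 0% of all genes. Npas4 had the largest, 0.44 ± 0.30 (adjusted p = 0.782, limma), from the change of sign given above. Btg2 had -0.36 ± 0.21 (adjusted p = 0.770, limma), and the adjusted p of the other 8 lay between 0.828 and 0.969. Markers of other tissue moved with genotype in experiment 1: all 9 choroid plexus markers and all 10 striatal markers had differences below 0 there, with medians of -1.03 and -0.71, although 0 of them passed the threshold in limma (6 and 1 with an unadjusted p under 0.05). All 7 myelin markers were below 0 as well (median -0.24), and 9 of 10 dentate markers were above 0 (median 0.42, 4 with an unadjusted p under 0.05), again with 0 past the threshold. The CA3 markers had 6 of 8 above 0 and the inhibitory neuron markers 5 of 8, with 3 in each list at an unadjusted p under 0.05 (limma). Of all 19938 genes, 57.5% were above 0 in experiment 1 and 698 had an unadjusted p under 0.05. Without both arrays that stood apart, the medians in experiment 1 were -1.37 for choroid, -0.03 for striatal, -0.17 for myelin and 0.27 for dentate markers. In experiment 2 all 9 choroid markers were above 0, beside 47.0% of all genes, with a median of 0.38 and 0 past the threshold. The choroid list ran from -0.14 to 1.26 in wild-type and from -0.22 to 0.12 in Kmt2d+/βGeo mice of experiment 1 (mean log2 deviation from all arrays), and the striatal list was high in wild-type replicate 2 alone. Their part in the values of these genes was not tested.

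The other comparison set experiment 2, with saline injections and TRIzol extraction, against experiment 1, with neither. Of the 10 genes, 6 were called, 2 higher and 4 lower, beside 77.2% of all genes (41.8% higher and 35.4% lower), so the share called among these genes was not above the background. Egr3 had the lowest difference, -0.73 ± 0.09 or 1.66-fold lower (adjusted p = 2.48e-06, limma), and every mouse of experiment 2 was below every mouse of experiment 1. Egr1 differed by -0.59 ± 0.13, 1.51-fold lower (adjusted p = 4.55e-04, limma). Npas4 differed by -0.58 ± 0.15, 1.49-fold lower (adjusted p = 0.0029, limma), and Fosb by -0.41 ± 0.06, 1.33-fold lower (adjusted p = 1.94e-05, limma). In the other direction, Junb was higher by 0.43 ± 0.10, 1.34-fold (adjusted p = 0.00103, limma), and Arc by 0.34 ± 0.14, 1.27-fold (adjusted p = 0.0346, limma). In the deposited values the AP-1 genes moved in opposite directions, Fosb down and Junb up (Junb not past the threshold once array medians were subtracted), and Fos did not pass (0.13 ± 0.08, adjusted p = 0.166, limma). Nr4a1 (-0.17 ± 0.14), Dusp1 (-0.04 ± 0.15) and Btg2 (-0.12 ± 0.11) did not pass either.

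Exact permutation tests over the mice, with genotypes kept apart, gave p = 0.00143 for Fosb, Junb and Egr3, the smallest that 700 regroupings can give. They gave 0.00286 for Egr1, 0.0186 for Npas4 and 0.0571 for Arc. In wild-type mice alone, 5 of the 10 were called, beside 69.3% of all genes (37.3% higher and 32% lower): Junb higher (0.50 ± 0.14) and Fosb (-0.44 ± 0.09), Egr1 (-0.72 ± 0.17), Egr3 (-0.68 ± 0.13) and Npas4 (-0.78 ± 0.20) lower. Junb in these mice no longer passed with array medians subtracted (0.26, adjusted p = 0.119, limma). Arc (0.39) passed there as higher under 4 of the 22 alternatives, and Nr4a1 (-0.29) as lower under 2. In Kmt2d+/βGeo mice alone, 3 were called, beside 62.3% of all genes: Fosb (-0.37 ± 0.09), Egr1 (-0.44 ± 0.18) and Egr3 (-0.79 ± 0.14), all lower. The call of Egr1 (adjusted p = 0.0463, limma) was lost under 11 of the 22 alternatives run. It was lost with every probe set tested (adjusted p = 0.0724, limma) and after quantile normalisation (-0.18, adjusted p = 0.464, limma). It was also lost when wild-type replicate 1 or 4 or any Kmt2d+/βGeo replicate of experiment 1, or wild-type replicate 3 or any Kmt2d+/βGeo replicate of experiment 2, was left out (adjusted p 0.0529 to 0.157, limma). In heterozygotes Junb was at 0.34 ± 0.15 (adjusted p = 0.0570, limma) and passed as higher under 4 of the 22 alternatives. Btg2 (-0.32 ± 0.15) passed there as lower under 2, and Npas4 (-0.34 ± 0.22) as lower under 1. Arc (0.28) passed as higher under 1, and Fos (0.17) as higher under 1 of the 21 run for it. The mice of the experiments did not overlap in either genotype for 4 genes, Fosb, Junb, Egr1 and Egr3, beside 56.6% of all genes. For Npas4 they did not overlap in wild-type mice, where 68.6% of all genes did not, nor for Arc and Btg2 in heterozygotes, where 67.7% did not.

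The directions of this comparison depend in part on scaling. An array's median over all 35556 probe sets was 6.74 to 6.90 in experiment 1 and 7.04 to 7.08 in experiment 2. The median difference of the 19938 genes was 0.07 in the deposited values. With each array's median over all probe sets subtracted, that median difference became -0.17. Egr3 (-0.97), Egr1 (-0.84), Npas4 (-0.82) and Fosb (-0.65) then remained lower and past the threshold, while Junb (0.18, adjusted p = 0.124, limma) and Arc (0.09, adjusted p = 0.540, limma) no longer passed. Under this scaling Nr4a1 (-0.41, adjusted p = 0.0108, limma) and Btg2 (-0.37, adjusted p = 0.0104, limma) passed as lower, and the split went from 2 higher and 4 lower to 0 higher and 6 lower. After quantile normalisation of the 13 arrays the same 4 genes were lower and past the threshold, from -0.28 for Fosb to -0.68 for Npas4, and Junb (0.47) and Arc (0.63) were higher. Fos, which was above 0 as deposited, was below 0 under both, at -0.12 and -0.13. The call of Arc was also lost without wild-type replicate 3 or 4 or Kmt2d+/βGeo replicate 3 of experiment 1, and without wild-type replicate 2 or 3 or Kmt2d+/βGeo replicate 1 of experiment 2 (adjusted p 0.0528 to 0.109, limma). Without both arrays that stood apart, 6 genes were called.

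**Figure D3:**
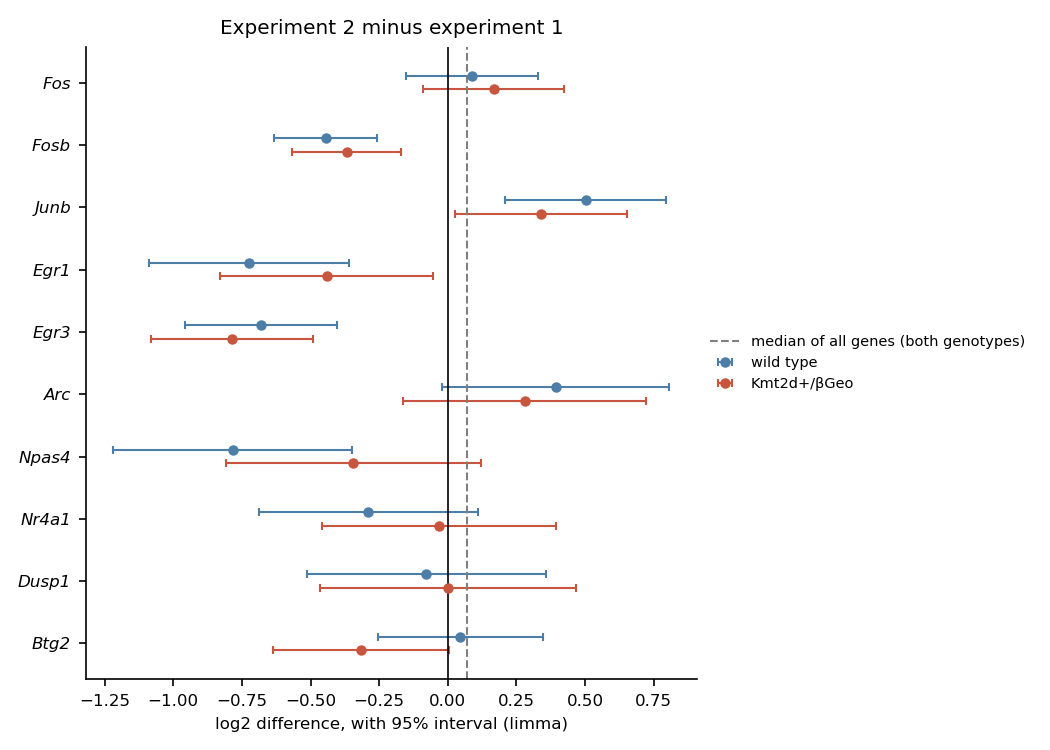
Log2 difference, experiment 2 minus experiment 1 (horizontal axis), with its 95% interval from limma, for each gene in wild-type (blue) and Kmt2d+/βGeo mice (red); the solid line marks 0 and the dashed line the median of all genes, 0.07. Fosb, Egr1 and Egr3 lie below 0 in both genotypes, also after each array's median was subtracted. After quantile normalisation Egr1 in heterozygotes is at -0.18 and does not pass (adjusted p = 0.464, limma). Junb and Arc lie above 0 in both genotypes, but in the deposited values only Junb in wild-type mice passes. Arc has adjusted p of 0.0846 in wild-type mice and 0.251 in heterozygotes, and Junb 0.0570 in heterozygotes (limma). Neither gene passes in either genotype once array medians are subtracted, and Fos turns below 0 under both scalings.

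Markers of cell types moved with the experiment as well. Of the dentate granule cell markers 8 of 10 passed as lower in experiment 2 and 0 as higher, of the CA1 markers 5 of 7, of the CA3 markers 6 of 8 and of the astrocyte markers 7 of 8, likewise with 0 higher, beside the 35.4% of all genes that were lower. The inhibitory neuron markers had 2 higher and 4 lower of 8, neocortex markers 1 and 5 of 8, endothelial markers 1 and 5 of 7, microglia markers 3 and 3 of 7, myelin markers 1 and 4 of 7, choroid markers 0 and 5 of 9, and striatal markers 0 and 2 of 10. The dentate list lay between -0.15 and 0.53 on the arrays of experiment 1 and between -0.57 and -0.24 on those of experiment 2 (mean log2 deviation from all arrays), and the astrocyte list between 0.15 and 0.41 and between -0.51 and -0.31. Of 9 glucocorticoid-induced genes, which respond to stress hormone, 8 were lower and 1 was higher in experiment 2. The part of these shifts in the levels of the immediate early genes was not tested, and injections, extraction, array run and any separate normalisation cannot be told apart.

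Other genes of the same pathway were read from lists chosen by function. Of 40 other rapid primary response genes, 0 passed the threshold for genotype over both experiments (2 with an unadjusted p under 0.05, limma), and the median difference was -0.02 (all genes 0.002). The lowest p belonged to Sik1, a kinase that restrains CREB coactivators, at -0.25 ± 0.09 (adjusted p = 0.826, limma; -0.30 in experiment 1 and -0.20 in experiment 2). The clock gene Per1, itself a CREB target, followed at -0.17 ± 0.07 (adjusted p = 0.867, limma), then the phosphatase Dusp4 at 0.16 ± 0.08 and Errfi1, an inhibitor of EGF receptor signalling, at -0.11 ± 0.07. Per1 was at 9.56 to 9.80 in wild-type and 9.42 to 9.53 in Kmt2d+/βGeo mice of experiment 1, without overlap, and the genotypes overlapped in experiment 2 (9.50 to 9.80 against 9.42 to 9.63). Without both arrays that stood apart, Sik1 was at -0.21, Per1 at -0.12, Dusp4 at 0.13 and Errfi1 at -0.05 over both experiments. In the comparison of the experiments, 9 of the 40 passed as higher and 19 as lower, beside 41.8% and 35.4% of all genes. Nr4a3, the paralogue of Nr4a1, was lower, with a difference of -1.51 ± 0.10 (adjusted p = 5.41e-10, limma), and Arf4 (-1.29), Errfi1 (-1.02) and Tiparp (-0.99) were lower too. In wild-type mice Nr4a3 lay between 9.48 and 9.90 in experiment 1 and between 7.99 and 8.40 in experiment 2.

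Effector and delayed activity genes encode secreted, synaptic and signalling proteins that follow the first wave. Of 40, 0 passed for genotype (7 with an unadjusted p under 0.05, limma), with a median of 0.03. Ptgs2, the inducible cyclooxygenase of hippocampal neurons, had the lowest p of the list, 8.80e-04 before and 0.516 after adjustment in limma, with a difference of 0.38 ± 0.09. It was at 9.88 to 10.15 in wild-type and 10.30 to 10.65 in Kmt2d+/βGeo mice of experiment 1, without overlap. In experiment 2 it was at 8.36 to 8.69 and 8.49 to 9.02, with overlap. The neuritin gene Nrn1 (0.22 ± 0.08), the polo-like kinase gene Plk2 (0.18 ± 0.07) and the pentraxin gene Nptx2 (0.25 ± 0.11) were next, with adjusted p of 0.828, 0.897 and 0.934 (limma). The difference of Plk2 was 0.38 in experiment 2 and -4.33e-04 in experiment 1. Without both arrays that stood apart, Ptgs2 was at 0.38 (adjusted p = 0.738, limma), Nrn1 at 0.19, Plk2 at 0.23 and Nptx2 at 0.30. Between the experiments 5 of the 40 were higher and 25 lower, beside 41.8% and 35.4% of all genes, with a median of -0.53 (all genes 0.07), led by Ptgs2 (-1.60), Fbxo33 (-1.20), Gpr22 (-1.07) and the granule protein gene Chgb (-0.93).

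Of the upstream genes (receptors, kinases and the transcription factors that read the calcium signal), 31 of 40 were measured. For genotype 0 passed and 0 had an unadjusted p under 0.05 (limma), with a median of 0.02. The lowest p belonged to the NMDA receptor subunit Grin2a (0.12 ± 0.06), the calcium channel Cacna1d (0.14 ± 0.09), Arnt2, a dimer partner of Npas4 (-0.12 ± 0.09), and the CREB coactivator Crtc2 (-0.10 ± 0.07), with adjusted p of 0.934 (limma) in each. Without both arrays that stood apart, these were at 0.13, 0.16, -0.16 and -0.12. Between the experiments 3 of the 31 were higher and 20 lower, beside 41.8% and 35.4% of all genes, with a median of -0.34. Grin2a (-0.94 ± 0.06), the activity-regulated factor Mef2d (-0.73 ± 0.06), the acetyltransferase Ep300 (-0.62 ± 0.05) and the calcineurin subunit Ppp3cb (-0.92 ± 0.08) were lower.

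Within groups, the immediate early genes varied between single mice. Wild-type replicate 1 of experiment 2 was below its group mean for all 10 genes, by a mean of -0.31 on the log2 scale, and was the lowest of its 3 mice for 9 of them, whereas 39.5% of all genes were lowest on that array. The exception was Btg2. Replicate 2 of that group was above the mean for 9 of the 10 genes, at a mean of 0.21. It was the highest of its group for 6 of them, beside 32.1% of all genes. In the Kmt2d+/βGeo mice of experiment 2, replicate 3 was the lowest for 7 of 10 (44.1% of all genes) and replicate 1 the highest for 7 of 10 (38.9% of all genes). Wild-type replicate 4 of experiment 1 was below its group mean for all 10, at a mean of -0.13. It was the lowest of its group for 4 of them, beside 17.2% of all genes. Wild-type replicate 2 of experiment 1, the array with striatal markers, was the highest of its group for 6 genes, Fosb, Junb, Egr1, Egr3, Arc and Nr4a1, beside 26.1% of all genes, and its dentate markers deviated from their group mean by -0.32. Striatal neurons express several of these genes too, and the part of those markers in the values was not tested.

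**Figure D4:**
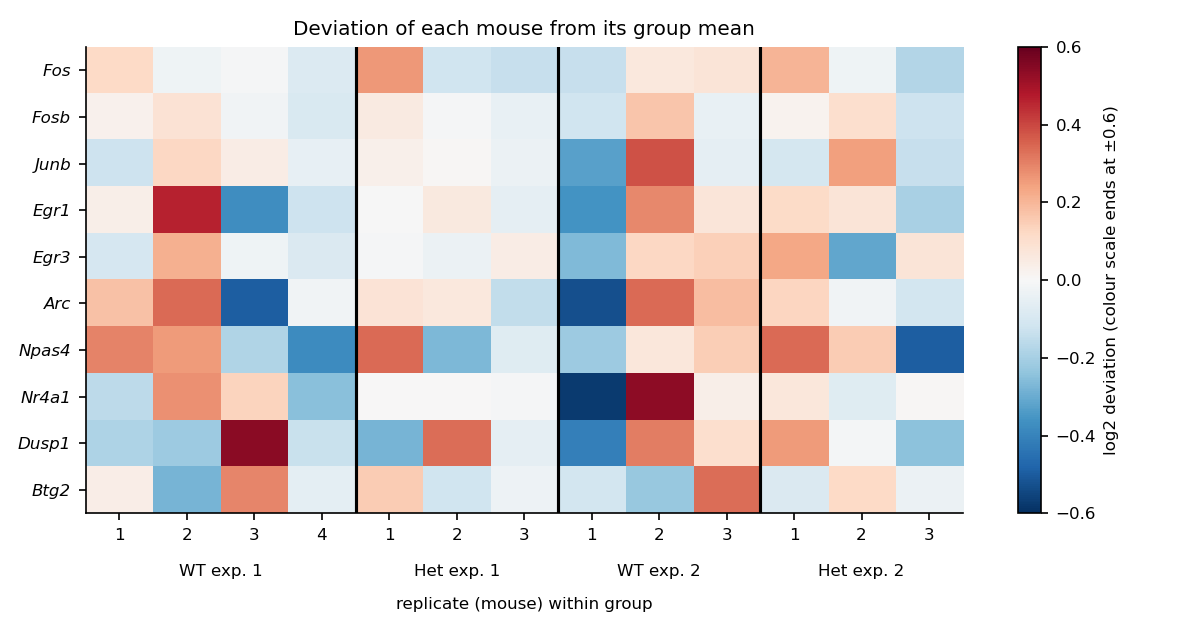
Log2 deviation of each mouse (columns, replicates within the 4 groups) from its group mean for each gene (rows), blue below and red above. The column of wild-type replicate 1 in experiment 2 is blue for all 10 genes, and Btg2 and Dusp1 run against Egr1 and Arc in wild-type replicate 3 of experiment 1.

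Pairs of these genes were then correlated over the 13 mice after subtracting the 4 group means. This removes shifts of the mean by genotype or experiment, while differences between groups in spread or in correlation remain. Of 45 pairs, 38 had r above 0, with a median r of 0.31 (0.23 in experiment 1 and 0.65 in experiment 2). Egr1 and Arc had the closest relation, with Pearson's r = 0.92 and Spearman's rho = 0.87, both with an exact permutation p of 3.86e-04 (5184 permutations within groups), or 0.0174 after adjustment over the 45 pairs. Their r was 0.91 in experiment 1 and 0.95 in experiment 2, and 0.91 without the 2 mice farthest from the median of Egr1. Only 0.0201% of all genes correlated with Egr1 as closely. Fos and Npas4 followed with r = 0.83 and rho = 0.84 (exact permutation p = 0.00231 and 0.00386, adjusted 0.0521 and 0.0868), 0.76 and 0.91 in the 2 experiments, and 0.78 without the 2 farthest mice. Fosb and Junb had r = 0.85 and rho = 0.76 (exact permutation p = 0.0175 and 0.0312, adjusted 0.132 and 0.177), but 0.51 in experiment 1 and 0.93 in experiment 2. Egr3 and Nr4a1 had r = 0.69 (exact permutation p = 0.0054, adjusted 0.081). Without both wild-type arrays that stood apart, and with group means taken anew, r was 0.94 for Egr1 and Arc and 0.90 for Fos and Npas4. For Egr1 and Arc these are the same 2 mice as those farthest from the median of Egr1, so this is not a separate check. It was 0.85 for Fosb and Junb and 0.64 for Egr3 and Nr4a1. Further pairs moved in either direction, such as Arc and Nr4a1 from 0.60 to 0.90 and Dusp1 and Btg2 from 0.21 to -0.23.

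Btg2 and Dusp1 had lower correlations with Egr1 and Arc over all 13 mice. The r of Btg2 with Egr1 was -0.45, with Arc -0.32 and with Egr3 -0.21, and none of these passed (adjusted p 0.539 to 0.760 by exact permutation). Dusp1 had r = 0.04 with Arc over all mice, composed of -0.73 in experiment 1 and 0.94 in experiment 2, and r = 0.06 with Egr1, composed of -0.58 and 0.97. Wild-type replicate 3 of experiment 1, with the highest Dusp1 and the lowest Arc and Egr1 of its group, is one of the points behind the negative values. Without both wild-type arrays that stood apart, which were also the 2 mice farthest from the median of Egr1, the r of Egr1 and Dusp1 was 0.81, and that of Arc and Dusp1 0.73. The r of Btg2 was then 0.03 with Egr1, 0.15 with Arc and -0.04 with Egr3.

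**Figure D5:**
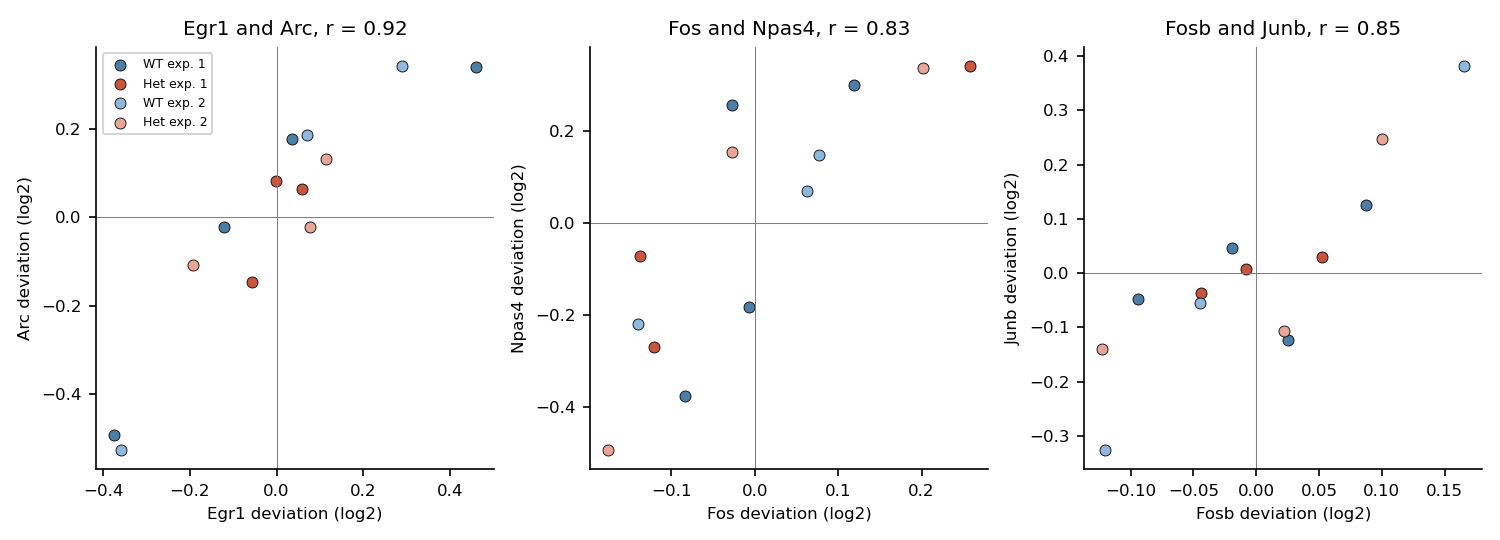
Log2 deviations from the group mean for Egr1 against Arc, Fos against Npas4 and Fosb against Junb, with 1 point per mouse, coloured by group. Points run from lower left to upper right in all 3 panels, with r = 0.92, 0.83 and 0.85.

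Genes whose deviations were most like the mean deviation of the 10 were named by the same correlation, as a description without a test. They were Jup (plakoglobin, a junction protein; r = 0.98), Pacs2 (0.97), Plekhh1 (0.95), Tmem132e (0.95), Gps2 (0.94), the neuronal RNA-binding protein gene Elavl3 (0.94), Ppp1r37 (0.94), Sh2b3 (0.94), Slc9a3r2 (0.93) and Krba1 (0.93). In all 38 genes had r above 0.9 and 14 below -0.9. The genes most like Fos alone were Dsn1 (0.98), Slc16a13 (0.92) and Cd180 (0.90), those most like Arc were Col15a1 (0.96), Nod1 (0.95) and Olfr213 (0.93), and those most like Egr1 were Epha8 (0.96), Mtcl1 (0.93) and Rhobtb2 (0.93). The other rapid primary response genes had a median r of 0.18 with the mean of the 10, and 11 of 40 had r above 0.5. The effector and delayed activity genes had a median of 0.25 with 8 of 40 above 0.5, and the upstream genes 0.15 with 8 of 31. The median over all genes was 0.06, and the share of all genes above 0.5 was not computed. Myelin markers stood higher, with a median r of 0.72 and all 7 above 0.5. Their mean deviation was -0.50, 0.36 and 0.15 in the wild-type replicates 1, 2 and 3 of experiment 2, in which the immediate early genes deviated by -0.31, 0.21 and 0.10. In the Kmt2d+/βGeo replicates 1, 2 and 3 of experiment 2 the myelin markers deviated by -0.14, 0.11 and 0.04 and the immediate early genes by 0.12, 0.03 and -0.14, with opposite signs in replicates 1 and 3. The CA1 markers had a median of 0.51 and the dentate markers of -0.40. The part of tissue composition in this shared variation was not tested.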

How the data were processed

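The deposited table holds log2 intensities of 35556 probe sets on 13 Affymetrix Mouse Gene 1.0 ST arrays, which the authors made with RMA in oligo, per the submitters' processing notes. This method subtracts background, aligns array distributions and summarises probes, and it compresses differences of dim probe sets. Not given in the sources used here were the oligo version, the genome build and whether all arrays were normalised in a single run. RNA was extracted with RNeasy in experiment 1 and TRIzol in experiment 2, per the labels' protocols. Of the probe sets, 21789 had 1 gene symbol, 1621 had several and 12146 were unlisted in the platform annotation, and the last groups stayed unnamed. Genes with several probe sets were read by the one with the highest mean, which gave 19938 genes.

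Tests used limma 3.58.1 in R 4.3.3 (statmod 1.5.0), with genotype and experiment as terms over both experiments or a model of the 4 groups within them. They were two-sided, adjusted by Benjamini-Hochberg over the 19938 genes, with a threshold of 0.05, and the scripts were tested on simulated data. Errors are SE unless an SD is named. Mice are separate animals with 1 array each, and their number limits the precision. The replicate numbers shared by the genotypes do not pair mice: the correlation of same-numbered deviations ran from -0.23 to 0.22. Alternatives were the probe set rule, filters on dim genes, variance moderation, array weights, scaling, a replicate block, fits within an experiment and leaving out arrays. The genes and lists were chosen with earlier results of these data known. Named genes were the 10 with every value, in each pathway list the 4 of lowest p per contrast, and the 10 genes most like their mean and 3 most like Fos, Arc and Egr1. The lists overlap in Sgk1, Nr4a2 and Sst. Promoters and motif counts came from RefSeq GRCm38.p6.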

Additional observations from a re-analysis of the deposited data

Results flagged for a closer look

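Dusp1, the phosphatase gene, had a value of 10.757 in wild-type replicate 3 of experiment 1, far from the other 3 mice of its group, which were at 10.03, 9.997 and 10.08. It lay beyond the 95% limit of Dixon's test for 4 samples. In all 10 groups of 4 mice, 1 for each gene, were tested, and 1 was beyond the limit, where chance gives about 1 in 20. This mouse has its sex labelled as unknown, and Xist was at 4.81 on its array. Without it, the genotype difference of Dusp1 over both experiments was -0.15 in place of -0.25, and neither passed the threshold (adjusted p = 0.914 and 0.934, limma).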

How the results depend on the processing

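With 13 mice, the genotype difference of each gene had an SE of 0.06 to 0.15, and 0 of 10 genes were called for genotype under every alternative run. For the experiments, Egr1, Egr3, Fosb and Npas4 were lower and past the threshold under all alternatives, with ranges of -0.84 to -0.34, -0.97 to -0.48, -0.65 to -0.28 and -0.82 to -0.43. The count of genes called between the experiments was 5 to 6 without single arrays. In wild-type mice it was 5 to 6, and in heterozygotes 2 to 4. In heterozygotes it was 5, all lower, with each array's median subtracted. The replicate block, on numbers that do not pair mice, gave 0 genes for genotype and turned Npas4 over both experiments to -0.045 and, in experiment 1, Junb to -0.015 and Egr3 to -0.021. A filter leaving out the lower 50% of genes removed Fos. Leaving out both arrays that stood apart was added after seeing the data. The cause of each change below was not tested.

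Differences that did not pass the threshold changed sign as follows. Without both arrays that stood apart, Egr1 (0.030) and Nr4a1 (0.10) changed for genotype over both experiments, Nr4a1 for genotype in experiment 1 (0.072), Dusp1 for genotype by experiment (-0.081), and Dusp1 between the experiments (0.037) and in wild-type mice (0.082). With array weights, Egr3 (0.013) and Npas4 (-0.053) changed over both experiments, Arc (-0.083) and Nr4a1 (-0.027) in experiment 2, Dusp1 by experiment (-0.11), and Dusp1 between the experiments (0.0063), in wild-type mice (0.052) and in heterozygotes (-0.059). With each array's median subtracted, Fos between the experiments was -0.12 (-0.15 in wild-type mice, -0.082 in heterozygotes), Btg2 -0.20 in wild-type mice and Dusp1 -0.25 in heterozygotes. After quantile normalisation, Fos was -0.13 (-0.16 and -0.11), Nr4a1 0.12 (0.26 in heterozygotes) and Dusp1 0.23 (0.18 in wild-type mice).

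Without single arrays, genotype over both experiments ranged from -0.0072 to 0.17 for Arc, -0.13 to 0.022 for Btg2, -0.10 to 0.072 for Egr1, -0.089 to 0.029 for Egr3, -0.13 to 0.012 for Junb, -0.091 to 0.094 for Npas4 and -0.14 to 0.083 for Nr4a1. In experiment 1 it ranged from -0.017 to 0.26 for Arc, -0.27 to 0.0078 for Egr1, -0.024 to 0.080 for Egr3 and -0.040 to 0.043 for Junb. In experiment 2 it ranged from -0.23 to 0.21 for Arc, -0.043 to 0.28 for Egr1, -0.23 to 0.058 for Egr3, -0.11 to 0.034 for Fosb, -0.33 to 0.028 for Junb and -0.16 to 0.39 for Nr4a1. The difference between these effects ranged from -0.38 to 0.059 for Arc, -0.12 to 0.25 for Dusp1, -0.24 to 0.050 for Egr3, -0.022 to 0.21 for Fos, -0.33 to 0.027 for Junb and -0.029 to 0.53 for Nr4a1. Between the experiments, Dusp1 ranged from -0.11 to 0.060 (-0.23 to 0.13 in wild-type mice, -0.14 to 0.17 in heterozygotes), Btg2 in wild-type mice from -0.12 to 0.16 and Nr4a1 in heterozygotes from -0.066 to 0.0052.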
